A study of Rattus norvegicus with 2 samples.

Results

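Glycolysis, lactate and NADPH pathway genes were examined in IEC6, an epithelial cell line of the rat small intestine that is not transformed, after exposure to sodium trisulfide (Na2S3), an inorganic polysulfide. The set holds 37 genes, chosen by name, and comprises 2 glucose transporters, 15 glycolytic enzymes, 4 PFKFB and 4 PDK regulators, 4 lactate genes, 6 pentose phosphate enzymes and 2 further NADPH-forming enzymes. All 37 were on the array, read by 64 of its 45598 probes, and 35 of the 37 were well above background on both arrays. The control cells received water for 60 min and the treated cells Na2S3 for 60 min, at 100 µM by the sample label and the series design and at 100 mM by the treatment protocol, so the dose is uncertain. Both came from dish cultures of the same line, and the low-serum medium is described for the Na2S3 treatment only. Total RNA of each group went to 1 single-colour (Cy3) Agilent array. There were no replicates, so no p-value is given, and "higher" and "lower" describe these 2 arrays.

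Cells take up glucose through SLC2A transporters, trap it with hexokinases and split it in glycolysis to pyruvate, which lactate dehydrogenases turn into lactate for export by SLC16A carriers. PFKFB enzymes set the level of a sugar bisphosphate that activates phosphofructokinase, and PDK kinases switch off pyruvate dehydrogenase in the mitochondria and so limit the conversion of pyruvate to acetyl-CoA. The pentose phosphate pathway branches off after hexokinase and supplies NADPH, which keeps glutathione and thioredoxin reduced, and Me1 and Idh1 form NADPH in the cytosol as well.

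On both arrays 49.5% and 49.0% of probes (water and Na2S3) were well above background. Signals are Agilent processed signals in intensity units, with the Na2S3 array multiplied by 0.866 so that both arrays share a 75th percentile of 413. Of the epithelial markers examined, 4 of 6 were above background on both arrays, with Epcam and Cldn7 not (summed signal 30959 and 30273). On the water array Krt8 (15892) and Cdh1 (14703) were bright, and Krt18 (142) and Krt19 (215) were far dimmer. Of the intestinal markers 2 of 6 were, Cdx1 and Cdh17, with Cdx2, Vil1, Lgr5 and Fabp2 not (4485 and 4144). Of the fibroblast and mesenchymal markers 5 of 6 were above background, with Pdgfrb not. The summed signal of this list was 144363 on the water array and 125336 on the Na2S3 array. Most of it came from Col1a1, Vim and Col1a2 (71687, 38714 and 33764 on the water array). Of the blood and endothelial markers 1 of 4 was (41.1 and 38.4), and of the muscle markers 2 of 4 (147 and 134). The part of these cell-type markers in the results was not tested. Across all 13018 genes measured on both arrays the median log2 ratio was -0.04 (SD over genes 0.34).

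Hk2, Pfkfb3, Eno2 and the glucose transporter gene Slc2a1 had the highest log2 ratios of the set, and Hk1, Pgd and Pdk1 had the lowest. Most glycolytic enzymes and most pentose phosphate enzymes lay close to 0. Hk2 and Pfkfb3, 2 of the 35 measured genes, exceeded 1.5-fold in the direction of Na2S3, as did 2.95% of all measured genes. No member, 0 of 35, exceeded 1.5-fold in the direction of water, where 3.42% of all genes did. Both directions together held 6.37% of all genes. At 2-fold there were 0 members either way, against 0.945% of all genes higher, 0.615% lower and 1.56% in both directions together. Of the 35, 29 lay within 1.3-fold, as did 84.6% of all genes. The counts are thus near those of the array as a whole,. In total RNA from a culture, fewer expressing cells and less RNA per cell cannot be told apart.

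**Figure D1:**
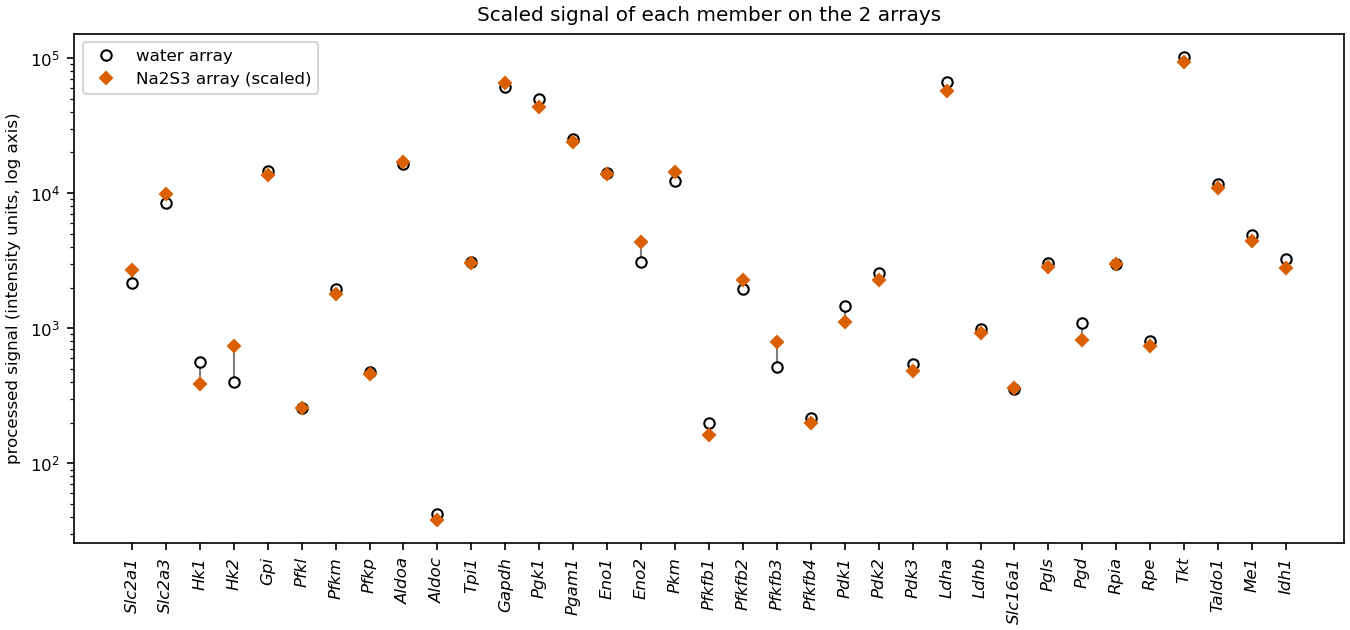
Scaled processed signal (intensity units, log axis) of each of the 35 measured genes on the water array (open circles) and the Na2S3 array (filled diamonds), 1 array per group, with a line joining each pair. The symbols nearly coincide for most genes and are clearly apart for Hk2, Pfkfb3, Eno2, Hk1, Pdk1 and Pgd; heights of different genes come from different probes and are not comparable.

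Both glucose transporters were higher in the Na2S3 array. Slc2a1 (GLUT1), the widely expressed basal transporter, had a signal of 2174 on the water array and 2718 on the Na2S3 array, a log2 ratio of 0.32 with a spot error of 0.09, and 8.56% of all genes had a ratio as high. The spot error is the SD of a log2 ratio expected from repeat spots of similar signal, divided by the square root of the probe's number of spots. It covers spotting and hybridisation within these arrays and nothing else. The Slc2a1 probe lies on chromosome 5 at 139718779 to 139718838 in rn4, the build of the files.

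Slc2a3 (GLUT3), a high-affinity transporter, was read by 10 repeat spots of 1 probe and by a second, single-spot probe. The 10 spots ran from 7698 to 8872 (median 8547) on the water array and from 9239 to 10274 (median 9883) on the Na2S3 array. The spots of the arrays thus did not overlap. Repeat spots are not replicate cultures. The share of all repeat-spot probes without such overlap was not counted, here or for Eno2, Pkm and Ldha below. The log2 ratio was 0.22, with an SD over the spots of 0.03. The other probe, which starts at base 705 of its transcript record, read 46.7 and 80.8, a log2 ratio of 0.79 with a spot error of 0.32. Both probes were thus higher in the Na2S3 array, but they differ in size, and the larger ratio comes from a dim spot. The sequence is shown because it is a separate stretch of the transcript that gave the same direction.
Slc2a3 probe, base 705: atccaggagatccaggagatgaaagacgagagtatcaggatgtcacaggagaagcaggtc

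Hexokinase genes went opposite ways. Hk2, the inducible mitochondria-bound hexokinase, read 401 on the water array and 739 on the Na2S3 array, 1.84-fold higher (log2 ratio 0.88, spot error 0.08). Its other probe read 105 and 184, a log2 ratio of 0.81. Both Hk2 probes therefore passed 1.5-fold, and 1.22% of all genes had a ratio at least as high as that of the brighter one. The probes lie on chromosome 4 at 116924279 to 116924338 and at 116925790 to 116925849 (rn4).

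Hk1, the constitutive hexokinase, read 564 and 389, 1.45-fold lower in the Na2S3 array (log2 ratio -0.54, spot error 0.10), and 4.22% of genes had a ratio as low. The log2 ratios of Hk2 and Hk1 differed by 1.42 with a combined spot error of 0.13. Hk1 rests on 1 spot of 1 probe, which the files leave unmapped on rn4 and which starts at base 2686 of its transcript record. Its sequence is given because the whole Hk1 value depends on it.
Hk1 probe, base 2686: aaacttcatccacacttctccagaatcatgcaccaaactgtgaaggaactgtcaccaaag

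Eno2 (gamma enolase), the neuronal enolase isoform, stood 1.42-fold higher in the Na2S3 array at its repeat-spot probe. Its 10 spots ran from 2805 to 3262 (median 3108) on the water array and from 4034 to 4761 (median 4258) on the Na2S3 array. The spots of the arrays did not overlap, and all 10 were higher with Na2S3, at a log2 ratio of 0.51 (SD over the spots 0.04). As for Slc2a3, these are repeat spots and not replicate cultures. The second probe read 440 and 561, a log2 ratio of 0.35 with a spot error of 0.10. Eno1 (alpha enolase), the ubiquitous isoform, had ratios of -0.02, 0.01 and 0.02 at its 3 probes, each spotted 10 times, with overlapping spots on the arrays. The brightest probes of Eno2 and Eno1 differed by 0.53 with a combined spot error of 0.04. The second Eno2 probe is shown for the same reason as that of Slc2a3.
Eno2 probe, base 837: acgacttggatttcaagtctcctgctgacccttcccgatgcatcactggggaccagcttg

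The remaining glycolytic enzymes, in order of the pathway, had log2 ratios between -0.20 and 0.22. Gpi, which isomerises glucose phosphate, read 14621 and 13509 (-0.11). The phosphofructokinase subunits, which catalyse the committed step, read 256 and 257 for Pfkl (0.0035), 1943 and 1786 for Pfkm (-0.12) and 471 and 458 for Pfkp (-0.04). Their spot errors were 0.10, 0.08 and 0.10, so none of the 3 stood apart from 0 by more than 2 spot errors.

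Aldoa, the main aldolase outside liver and brain, read 16293 and 16969 (0.06). Aldoc, the brain-type aldolase, was dim, and its 10 spots ran from 30.9 to 54.4 on the water array and from 31.8 to 45.9 on the Na2S3 array. These overlapped almost completely, with a mean log2 ratio of -0.13 and an SD over the spots of 0.29. Tpi1, the triose phosphate isomerase, read 3077 and 3017 (-0.03).

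Gapdh, the glyceraldehyde phosphate dehydrogenase gene, was read by 8 probes. The brightest read 60745 and 65706 (log2 ratio 0.11), while the other 7 had ratios from -0.19 to -0.07, and the median over the 8 was -0.08. The sign for Gapdh thus depends on the probe chosen. Of the 8, 5 also match a record of the pseudogene Gapdh-ps1 in the files' accession lists.

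In the lower part of the pathway, Pgk1, a phosphoglycerate kinase and ATP-forming enzyme, read 49812 and 43298 (-0.20). Pgam1, the phosphoglycerate mutase, had all 10 spots lower in the Na2S3 array, with medians of 25015 and 23894 and a log2 ratio of -0.08. Pkm, the pyruvate kinase that ends glycolysis, had all 10 spots of its brightest probe higher, with medians of 12406 and 14600 and a ratio of 0.22.

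The spots of that Pkm probe overlapped slightly between the arrays, and a second probe with 10 spots gave 0.25 without overlap. A single-spot probe gave 0.15. The remaining one, which starts at base 1329 of the record, read only 33.8 and 25.6, a log2 ratio of -0.40 with a spot error of 0.32. These small values shift with the scaling of the arrays. With quantile normalization Pgam1 stood at 0.06, Pgk1 at -0.03 and Gapdh at 0.32. When all measured genes were split by signal into 4 groups of nearly equal size, the brightest 3255 had a median ratio of -0.07 and included 16 of the 35 members. Around the brightest members the median was lower still. Genes within 0.5 log2 units of their signal had a median of -0.16 for Pgk1, -0.18 for Gapdh, -0.18 for Ldha and -0.22 for Tkt.

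**Figure D2:**
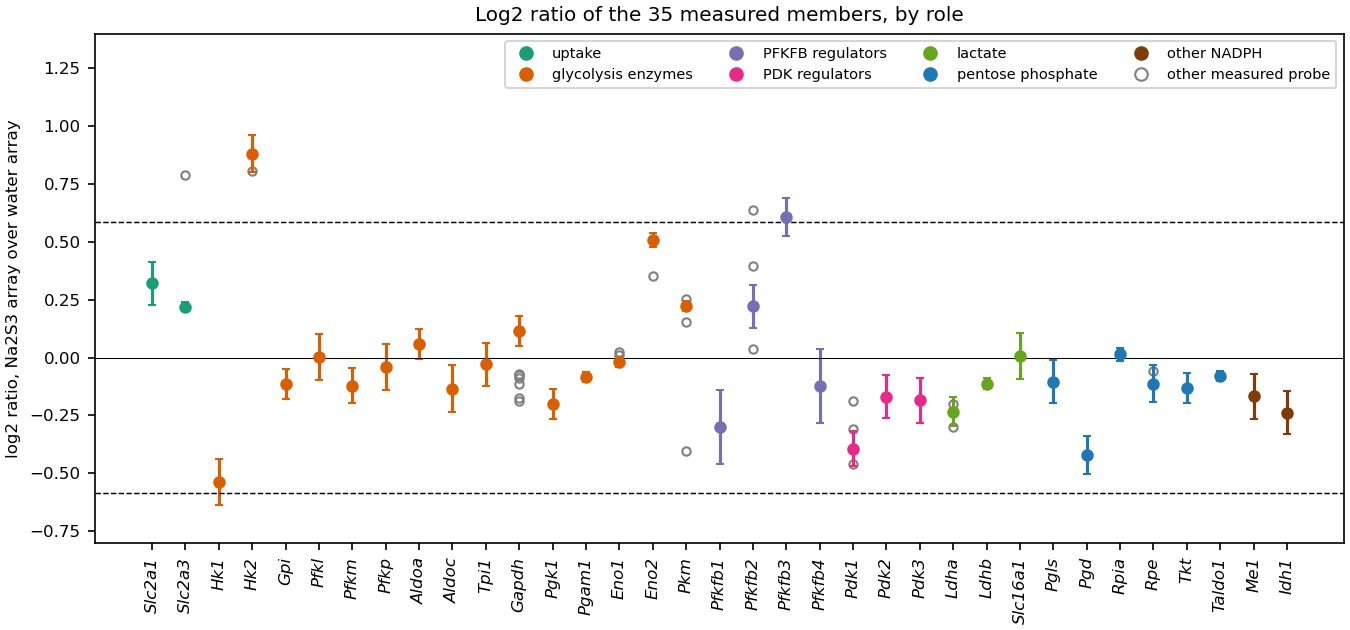
Log2 ratio of the Na2S3 array over the water array for the 35 measured genes in pathway order, coloured by role, 1 array per group. Filled points are the brightest measured probe with its spot error as bars, open circles are the gene's other measured probes, and dashed lines mark 1.5-fold; Hk2 (0.88) and Pfkfb3 (0.61) lie beyond the upper line and no gene lies beyond the lower one.

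The PFKFB genes, whose products make and break the activator of phosphofructokinase, did not move together. Pfkfb3, the inducible isoform with the strongest kinase activity, read 519 and 790, 1.52-fold higher in the Na2S3 array (log2 ratio 0.61, spot error 0.08). Its probe lies on chromosome 17 at 78270574 to 78270633 (rn4). With normexp background correction the ratio was 0.55 and short of 1.5-fold. Its other probes do not add to this. One read 24.9 on the water array and 12.5 on the Na2S3 array, where it was not well above background, and the last was not above background on either array.

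Pfkfb2, the heart-type isoform, read 1967 and 2293 at its brightest probe (0.22), and its 3 dimmer probes gave 0.64, 0.40 and 0.04 with spot errors of 0.32. All 4 were positive. Pfkfb1, the liver-type isoform, read 198 and 161 (-0.30, spot error 0.16), and Pfkfb4 read 218 and 200 (-0.12, spot error 0.16). The list median was 0.05 over 4 genes, with 2 genes positive and 2 negative. The log2 ratio of Pfkfb3 exceeded that of Pfkfb1 by 0.91 (combined spot error 0.18) and that of Pfkfb2 by 0.39 (0.12).

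All 3 measured PDK genes were lower in the Na2S3 array, at modest size. Pdk1, a pyruvate dehydrogenase kinase also known as a hypoxia target, read 1449 and 1103, 1.31-fold lower (log2 ratio -0.39, spot error 0.08). Its 4 probes ran from -0.46 to -0.19, all negative, and 8.27% of all genes had a ratio as low as the brightest probe. Pdk2, a broadly expressed isoform, read 2551 and 2268 (-0.17), and Pdk3 read 546 and 480 (-0.18), each with a spot error of 0.09 to 0.10. The signs held under all 9 processing alternatives. Pdk4, an isoform that fasting induces, stayed short of the background criterion on both arrays (8.02 and 3.80), so it has no ratio. The list median was -0.18 over 3 genes.

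Lactate genes had small ratios, none above 0.01. Ldha, the muscle-type lactate dehydrogenase, read 66918 and 56938 at its brightest probe (-0.23). Its repeat-spot probe ran from 14076 to 16065 on the water array and from 12488 to 13483 on the Na2S3 array. The ratio was -0.20 and the spots did not overlap, but these too are repeat spots and not replicate cultures. Another single-spot probe gave -0.30. All 3 Ldha probes were thus lower, although the brightest stood at -0.04 under quantile normalization, under loess and in the authors' deposited table. Ldhb, the heart-type subunit, had 9 of 10 spots lower (median 981 and 945, log2 ratio -0.11, SD over the spots 0.10). Slc16a1 (MCT1), the monocarboxylate transporter, read 357 and 359 (0.0080). Slc16a3 (MCT4), the carrier that exports lactate from glycolytic cells, also stayed short of the background criterion on both arrays (5.41 and 5.37).

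In the pentose phosphate pathway, Pgd alone lay outside 1.3-fold. Pgd, the phosphogluconate dehydrogenase that forms NADPH, read 1087 and 812, 1.34-fold lower in the Na2S3 array (log2 ratio -0.42, spot error 0.08), and its ratio lay between -0.42 and -0.41 under all alternatives. It rests on 1 spot, on chromosome 5 at 166222360 to 166222419 (rn4), and 7.21% of all genes had a ratio as low. Pgls, the lactonase before it, read 3060 and 2848 (-0.10).

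The sugar-interconverting enzymes lay closer to 0. Rpia, the ribose phosphate isomerase, had 10 spots with medians of 3008 and 3006 and a ratio of 0.01, the only positive ratio of this list. Rpe, the epimerase, read 798 and 738 (-0.11). Tkt, the transketolase, read 101842 and 93106 (-0.13), but stood at 0.09 under quantile normalization, under loess and in the authors' deposited table. Taldo1, the transaldolase, had all 10 spots lower, with medians of 11701 and 11056 and a ratio of -0.08, while the spot ranges overlapped.

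The other NADPH-forming enzymes were slightly lower too. Me1, the cytosolic malic enzyme, read 4937 and 4397 (-0.17, spot error 0.10), and Idh1, the cytosolic isocitrate dehydrogenase, read 3276 and 2777 (-0.24, spot error 0.09). Both signs held under all 9 alternatives. Tkt, Taldo1, Pgd and Me1 are known targets of NRF2, the antioxidant transcription factor. At the main processing none of the 4 had a positive ratio, while 43.4% of all genes had one. Under loess Tkt stood at 0.09 and Taldo1 at 0.02. The part of NRF2 in these values was not tested.

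Set side by side, the list medians were -0.02 for uptake and glycolysis (17 measured genes, 8 positive), 0.05 for PFKFB genes (4, 2 positive), -0.18 for PDK genes (3, 0 positive), -0.11 for lactate genes (3, 1 positive) and -0.12 for pentose phosphate and NADPH genes (8, 1 positive). Across all measured genes the median was -0.04 and 43.4% had a positive ratio. Quantile normalization moved the median of uptake and glycolysis to 0.06 and kept those of the PDK genes (-0.18) and of the pentose phosphate and NADPH genes (-0.09) below 0. The width of the glycolysis list, from -0.54 to 0.88, came from Hk1 and Hk2.

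**Figure D3:**
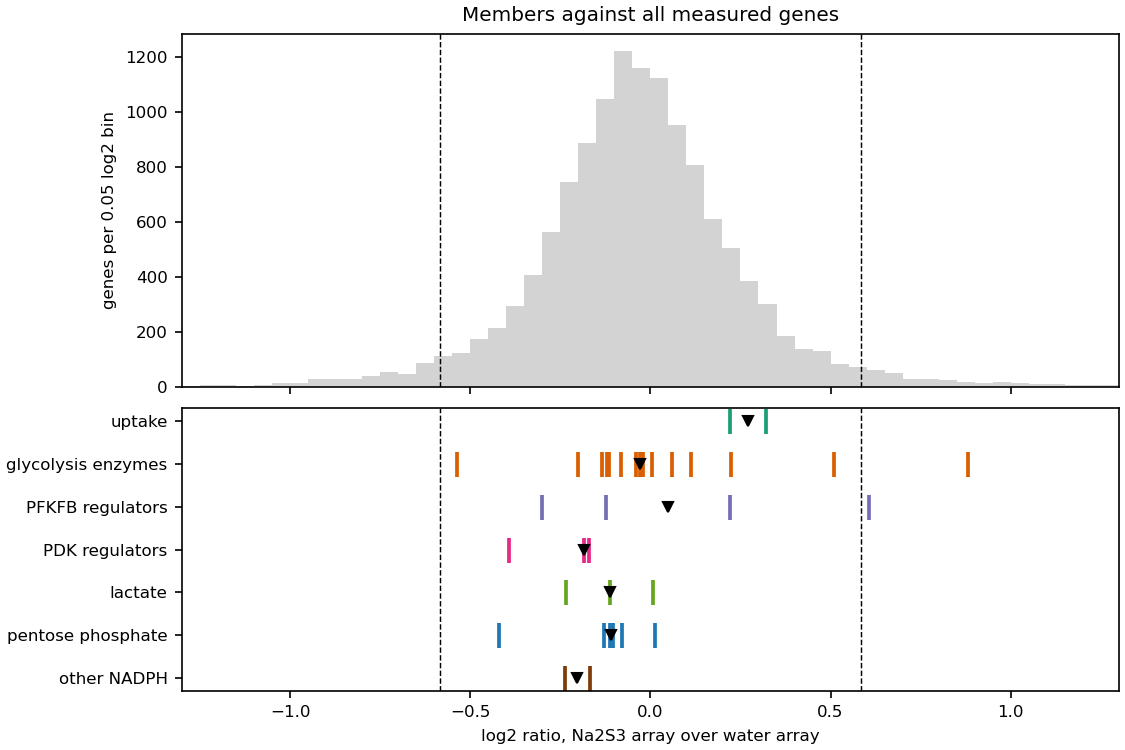
Top, number of genes per 0.05-wide bin of log2 ratio over the 13018 measured genes (bins beyond the axis limits are not drawn); bottom, a tick for each measured gene of the set by role and a triangle at the role's median, with dashed lines at 1.5-fold. Most ticks fall within the bulk of all genes, with Hk2, Pfkfb3 and Eno2 on the right and Hk1 and Pgd on the left.

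Promoter sequences of RefSeq (assembly GRCr8, the 250 bases before the annotated start) were available for 34 of the 37 genes; Slc2a3, Pgk1 and Pgls had no entry. The promoters of the measured genes with the highest ratios are printed because hypoxia-inducible factor and other bHLH factors, which bind the core ACGTG, are known regulators of glycolysis. Capitals mark ACGTG on either strand.
Slc2a1, chr5:138002272-138002521, plus strand: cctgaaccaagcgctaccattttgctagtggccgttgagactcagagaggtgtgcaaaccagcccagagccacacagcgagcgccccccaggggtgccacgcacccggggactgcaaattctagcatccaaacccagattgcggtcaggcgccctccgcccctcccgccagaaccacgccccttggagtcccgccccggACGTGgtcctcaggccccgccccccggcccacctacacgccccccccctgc
Hk2, chr4:116841276-116841525, minus strand: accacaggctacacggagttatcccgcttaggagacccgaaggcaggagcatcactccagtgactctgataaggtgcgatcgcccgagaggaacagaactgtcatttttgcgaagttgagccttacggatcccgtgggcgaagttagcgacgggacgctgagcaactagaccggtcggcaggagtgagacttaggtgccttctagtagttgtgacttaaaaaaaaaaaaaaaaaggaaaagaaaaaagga
Eno2, chr4:159267221-159267470, minus strand: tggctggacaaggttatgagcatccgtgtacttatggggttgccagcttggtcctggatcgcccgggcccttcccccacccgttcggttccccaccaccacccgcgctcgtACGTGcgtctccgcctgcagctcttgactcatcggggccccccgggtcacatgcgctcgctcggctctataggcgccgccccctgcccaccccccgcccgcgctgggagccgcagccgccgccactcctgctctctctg
Pfkfb3, chr17:71944683-71944932, plus strand: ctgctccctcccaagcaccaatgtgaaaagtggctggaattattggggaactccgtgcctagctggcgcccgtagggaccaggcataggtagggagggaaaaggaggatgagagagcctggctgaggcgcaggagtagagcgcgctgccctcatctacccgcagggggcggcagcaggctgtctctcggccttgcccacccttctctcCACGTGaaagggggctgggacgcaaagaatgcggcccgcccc

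ACGTG (reverse complement CACGT) occurred in 11 of the 34 promoters (32.4%) and in 16.9% of 27457 promoters of the same length. Slc2a1, Eno2 and Pfkfb3 were among the 11 and Hk2 was not. Also among them were Ldha, Pdk2, Pdk3, Pfkm, Aldoc and Pgam1, whose ratios were negative. The rest were Gapdh (0.11) and Slc16a1 (0.0080), so the matched genes had ratios of both signs. In Pfkfb3 the capitals form CACGTG, the E-box, which overlaps ACGTG on both strands and occurred in 4 of 34 (11.8%) against 5.79% of all promoters.

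Of the other motifs searched, the AP-1 site TGANTCA occurred in 4 (Eno2, Pfkfb2, Slc16a3 and Me1), or 11.8% against 6.36%. The antioxidant response core TGACNNNGC occurred in 3 (Slc16a1, Me1 and Idh1), or 8.82% against 10.2%. TGACGTCA, the cyclic AMP response element, occurred in Ldha alone (2.94% against 1.70%) and TGATGNAA, an ATF4-type element, in Pfkfb2 alone (2.94% against 3.27%). The median GC content was 61.2% in the 34 promoters and 52.0% in all. Its part in these shares was not tested, and a match is a stretch of letters, not a bound site.

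Beyond the 37 genes, 87 further genes of glucose, pyruvate and NADPH metabolism were taken as a list, of which 63 were measured. Their median log2 ratio was -0.05, with 20 positive and 43 negative. Past 1.5-fold there was 1 gene in each direction. Mthfd2, the mitochondrial folate enzyme, was the higher one, reading 2696 and 7874 (2.92-fold, log2 ratio 1.55, spot error 0.07), with 1.23 at its other probe. It was also the only one past 2-fold. Txnip, which promotes the removal of glucose transporters from the cell surface, was the lower one, reading 993 and 584 (1.70-fold lower, log2 ratio -0.76, spot error 0.08) on chromosome 2 at 191360631 to 191360690 (rn4). Its ratio stayed between -0.76 and -0.71 under all alternatives.

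Arrdc4, a relative of Txnip that also restrains glucose uptake, went the other way with 54.1 and 78.8 (0.54, spot error 0.19), but stood at 0.19 with normexp. Among other transporters the range ran from Slc2a4 (-0.14) to Slc2a9 (0.40), and among other glycolysis isoenzymes from Bpgm (-0.14) to Pgam5 (0.31), a mitochondrial phosphatase despite its name. In the list of glycogen and sugar branches, Pygb, a glycogen phosphorylase, was lowest (-0.31).

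Around pyruvate dehydrogenase, 9 genes were measured, with a median of -0.12. Pdp2, a phosphatase that reactivates the complex, was lowest, reading 3312 and 2356 (-0.49), with -0.48 and -0.15 at its other probes, and Pdpr, a phosphatase regulatory subunit, was highest (0.14). Pdp1, the other catalytic phosphatase of the complex, read 3420 and 3616 (0.08, spot error 0.09), so the phosphatase genes had ratios of both signs. Of 3 other measured lactate genes, Bsg, the chaperone that carries lactate transporters to the membrane, read 33561 and 23257 (-0.53), although it stood at -0.37 with quantile normalization, and Slc16a4 was highest at -0.03 (0.02 with quantile normalization). Among the other NADPH genes Me2, the mitochondrial malic enzyme, was lowest (-0.39).

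**Figure D4:**
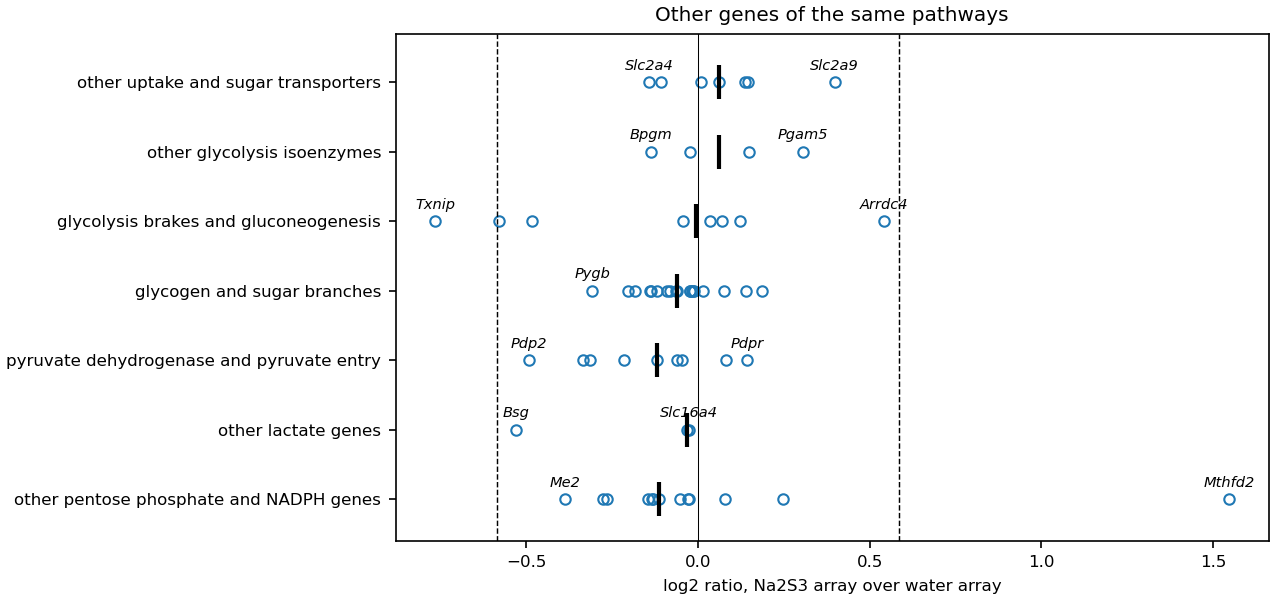
Log2 ratio of the Na2S3 array over the water array for the 63 measured further pathway genes, one open circle per gene, by list, with a bar at each list median and dashed lines at 1.5-fold. The lowest and highest gene of a list are named, except that only the lowest is named for glycogen and sugar branches; Mthfd2 (1.55) and Txnip (-0.76) are the only ones beyond 1.5-fold.

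Repeat spots and probes give the error of these values. Of the 35 measured genes, 26 rest on 1 spot per array and 9 on 10 spots, and the spot error of the value used ran from 0.02 to 0.16. Different probes of a gene differed more, with an SD of 0.24 over 3214 genes. Of the 10 members with several measured probes, 7 had the same sign at every probe, among them Hk2, Eno2, Slc2a3, Pfkfb2, Pdk1 and Ldha, and 3 had both signs (Gapdh, Eno1 and Pkm). Neither error includes the spread between cultures, which 1 array per group cannot show.

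**Figure D5:**
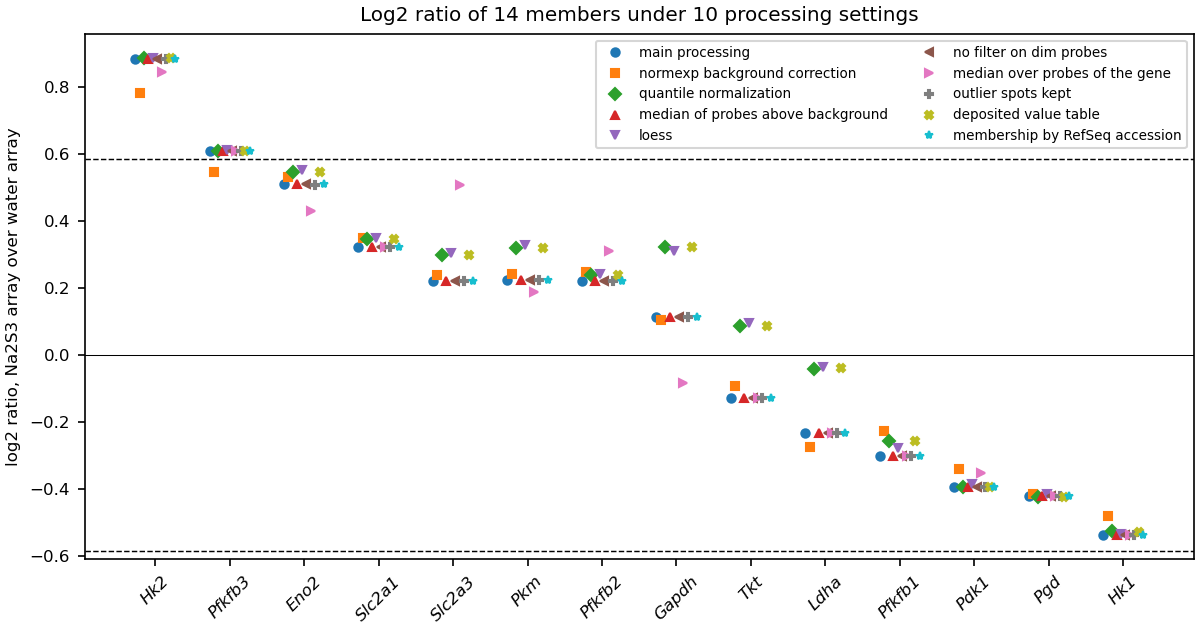
Log2 ratio of the Na2S3 array over the water array for 14 of the genes, chosen after their values were seen to show large and scaling-dependent ratios, under the main processing and 9 alternatives (one symbol each), with dashed lines at 1.5-fold. Hk2 stays above 1.5-fold (0.78 to 0.89) and Hk1, Pgd and Pdk1 stay below 0, while Tkt crosses 0 with the scaling and Gapdh with the choice of probe.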

How the data were processed

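Total RNA of 1 dish culture sample per group was labelled with Cy3 and hybridised to 1 Agilent array each, per the labels' protocols. The files hold spot intensity on a linear scale, background-subtracted and spatially detrended by Agilent Feature Extraction 10.7.1.1, per the file headers (the submitters' processing notes name 9.5.1.1). The software's flags are 0 or 1, per the file headers. The deposited value table holds linear intensity, with column medians of 19.3 and 19.3, normalized by a method that no source used here names. On each array its log2 values correlate with those of the scanner files (Pearson r 0.99997 over probes). Small ratios between the arrays can still differ in sign, as for Tkt (-0.13 at the main processing and 0.09 in the deposited table).

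Spots flagged as outliers (448 and 390) were left out. For each probe the mean of its spots' log2 processed signals was taken. From it was subtracted the log2 of the array's 75th percentile (413 and 478 over 45598 probes, controls left out), which removed a shift of 0.21. A probe counted as measured when over 50% of its spots were well above background on both arrays, and a gene's value is its brightest measured probe. Genes carry the file's GeneName, and grouping probes by RefSeq accession instead moved 0 of the 35 measured members by more than their spot error. Spot errors come from probes with at least 5 usable repeat spots, pooled by signal. The steps were tested on simulated data.

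A single array in each group allows no test, and that number limits the precision. Genes were counted at 1.5-fold and 2-fold. All 37 members are named, and of the further pathway genes those past 1.5-fold and the highest and lowest of each list, of which 1 is not reported here; other named genes were chosen after their values were seen. The members and lists were chosen with earlier results of these data known. The 9 alternatives were normexp (offset 50, limma 3.58.1), quantile normalization, loess, the median of probes above background, no filter, the median over probes, outlier spots kept, the deposited table and membership by accession. Python 3.11.15 and statsmodels 0.14.6 were used.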

Additional observations from a re-analysis of the deposited data

How the results depend on the processing

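No direction of a gene past 1.5-fold reversed under the 9 alternatives. With normexp the count of members at least 1.5-fold higher was 1, and over all genes 180 (1.38%) passed 1.5-fold upward and 165 (1.27%) downward, against 384 and 445 in the main processing. With no filter these counts were 2064 and 3033 of 27101 genes. With quantile normalization, loess and the deposited table, in that order, the median of uptake and glycolysis was 0.0646, 0.0585 and 0.0648, that of lactate genes -0.0405, -0.0367 and -0.0375, that of all members -0.0046, -0.0049 and -0.0036, and 2 further pathway genes were at least 1.5-fold higher. With no filter on dim probes the PDK median was -0.29, and 1 member was at least 1.5-fold and 1 at least 2-fold lower, Pdk4 by construction, since it is then included. Of further pathway genes 2 then passed 1.5-fold and 2 passed 2-fold upward, and 4 passed 1.5-fold and 2 passed 2-fold downward. By the median over probes, or by accession, 2 further genes were at least 1.5-fold lower. Arrdc4 was the gene added upward, at 0.59 under quantile normalization, loess and the deposited table. Mpc2 was the gene added downward by the median over probes, at -0.85. With no filter the further genes added were Aldh1l2 upward and Gapdhs, Pgk2 and Pgam2 downward. None of these was above background on either array, so they enter by construction, as Pdk4 does. The cause of the other changes was not tested. Quantile normalization, loess and the deposited table each moved 13 members by more than their spot error, normexp 4, the median over probes 5 and the others 0. With 1 array per group, no paired analysis was possible and no replicate could be left out. Spots below a signal of 64 carry an error of 0.32.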

Other observations

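Some probes of these pathways carry values that their gene's brightest probe does not show. Mpc2, a subunit of the mitochondrial pyruvate carrier, read 4076 and 3279 at its brightest probe (log2 ratio -0.31), whereas its other probe read 145 and 55.5 (-1.39, spot error 0.19). The files place the brighter Mpc2 probe on the plus strand of chromosome 13 at 81200854 to 81200913 and the dimmer one on the minus strand at 81203570 to 81203629 (rn4), so they do not read the same strand. Fbp2, a fructose bisphosphatase, read 34.3 and 23.0 at its only probe (-0.58, and -0.28 with normexp), and Fbp1, the liver-type enzyme, read 93.9 and 67.2 (-0.48).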
